A study of Bos indicus with 8 samples.

Results

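The genes of the hyaluronan matrix of cumulus expansion were followed in bovine cumulus cells, the somatic cells around the oocyte, after culture with and without follicle-stimulating hormone (FSH). The set holds 10 genes, HAS2, TNFAIP6, PTX3, VCAN, ITIH1, ITIH2, CD44, HAPLN3, SDC4 and PRG4, and takes in all probes whose symbol in the platform annotation is one of these. That gave 11 of the 43794 probes on the array, 1 for each gene and 2 for PRG4, and 10 of the 15229 named genes. The annotation can be old, and all 10 symbols matched RefSeq's genes of a Bos indicus assembly.

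The FSH pools were cumulus cells labelled Bos indicus, from complexes of 3 to 6 mm follicles of slaughterhouse ovaries, cultured for 6 h with recombinant human FSH (0.5 µg/ml). The control pools had the same medium without FSH, and both arms held 3 mM adenosine, 1 µg/ml estradiol and 10% fetal bovine serum. Each arm had 4 pools, and the labels give 10 as the pool size without naming its unit. The pools of each replicate number were hybridised together on 2 arrays of opposite dye orientation, so 8 arrays gave 4 replicate ratios. Each of the 2 slides carried 1 orientation, so slide and dye cannot be told apart. The labels call the replicates biological without naming the animals, and p-values measure the spread between these pools. In pooled cells, fewer cells of a type and less RNA per cell cannot be told apart.

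During expansion, cumulus cells make hyaluronan, a long sugar polymer, and build it into an elastic coat around the oocyte. HAS2 makes the polymer, and TNFAIP6 transfers the heavy chains of serum inter-alpha-trypsin inhibitor onto it. PTX3 joins these heavy chains into a network, and CD44 holds hyaluronan at the cell surface. FSH, the pituitary hormone of follicle growth, is known to start this programme in cultured complexes, and the comparison addressed its action in the presence of adenosine.

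No gene of the set passed the test for FSH against control. The limma test with Benjamini-Hochberg adjustment over the 32229 probes kept called 0 of the 10 kept probes of the set, where it called 0% of all probes in either direction. Their adjusted p lay between 0.405 and 0.986. At an unadjusted p under 0.05 there was 1 probe of the set, HAPLN3, higher with FSH, against 5.96% of all probes higher and 4.75% lower. Ratios were above 0 in all 4 replicates for HAPLN3 alone and below 0 in all 4 for none of the 10, against 11.4% and 8.22% of all probes (19.7% in either direction), so the count of 1 lies near the background. The mean log2 ratio of FSH over control was above 0 for 4 probes and below 0 for 6, with a median of -0.027, against 0.0068 over all probes kept. The dim probe of PRG4 did not exceed the negative control limit on any array and was not tested. These values do not show that FSH left the genes unchanged, since several intervals below are wide.

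**Figure D1:**
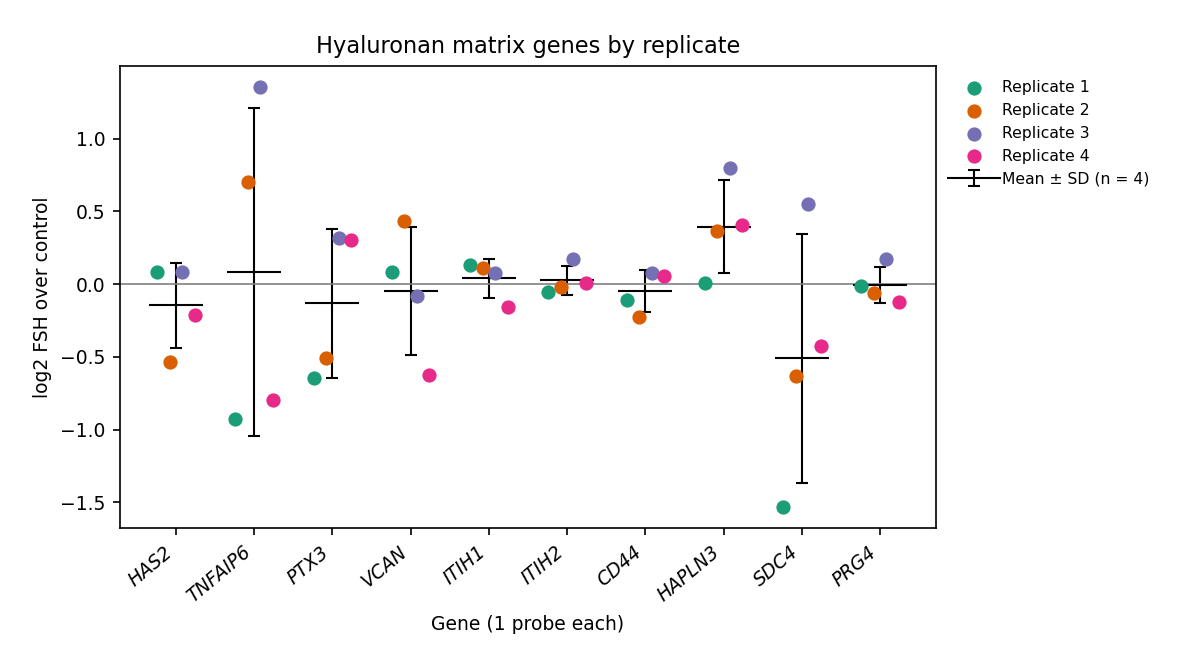
Log2 ratio of FSH over control (y axis) for the 10 genes (x axis, 1 probe each). Coloured points are the 4 replicates, and black bars give the mean ± SD (n = 4). TNFAIP6 and SDC4 spread over more than any other gene, and HAPLN3 has no replicate below 0.

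The probes differed in brightness, without a clean split. Spot signals were set against a limit for each array and channel, the mean plus 2 SD of 153 negative control spots. PTX3, VCAN, HAPLN3 and SDC4 exceeded it on all 8 arrays in both channels, and TNFAIP6 on 8 arrays in the FSH channel and 6 in the control channel. HAPLN3 lay between 18.9 and 66.4 times the limit in the FSH channel and between 10.7 and 65.8 times in the control channel. VCAN lay between 4.90 and 26.4 times with FSH and between 4.88 and 22.9 times in controls. The other 5 genes stayed near the limit. CD44 exceeded it on 7 arrays in each channel, ITIH1 and ITIH2 on 6 in each, PRG4 on 6 with FSH and 5 in controls, and HAS2 on 4 with FSH and 5 in controls. A change of these 5 genes was therefore poorly measurable at these signals.

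**Figure D2:**
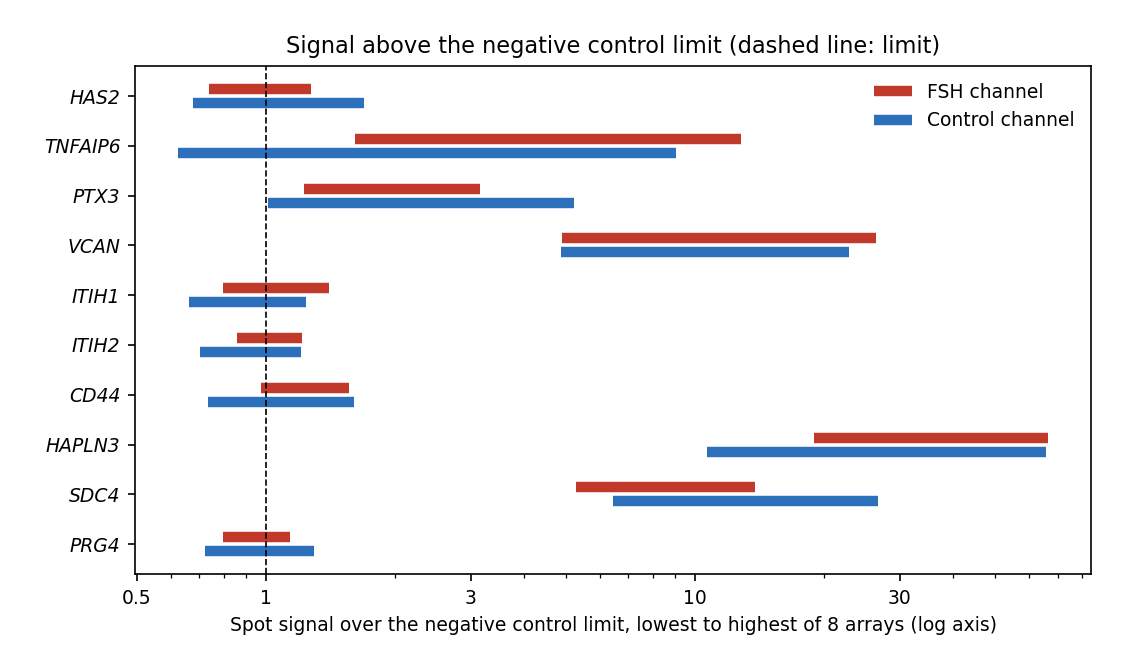
Spot signal divided by the negative control limit of its array and channel (x axis, log scale) for the 10 genes, as bars from the lowest to the highest of 8 arrays, with the FSH channel above the control channel. HAS2, ITIH1, ITIH2, CD44 and PRG4 straddle the limit at 1, while VCAN, HAPLN3 and SDC4 stand clear of it.

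HAS2, the hyaluronan synthase gene, gave log2 ratios of FSH over control of 0.080, -0.53, 0.084 and -0.21 in replicates 1 to 4. The mean was -0.15 ± 0.29 (SD, n = 4), with a limma 95% interval from -0.44 to 0.15 and an adjusted p of 0.723. Replicates 2 and 4 were below 0 and replicates 1 and 3 just above it. The normalized log2 signal was 6.51, 6.52, 6.54 and 6.52 in FSH pools 1 to 4, against 6.51, 6.77, 6.52 and 6.64 in control pools 1 to 4. The FSH pools were nearly equal, while control pools 2 and 4 were higher, and the groups overlapped. Spot signals reached at most 1.27 times the limit in the FSH channel and 1.70 times in the control channel. The mean ratio also differed between the dye orientations, at 0.046 where Cy5 marked FSH and -0.34 where Cy3 did.

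TNFAIP6, which encodes the protein that loads heavy chains onto hyaluronan, moved in opposite directions in different replicates. Its log2 ratios were -0.93, 0.70, 1.36 and -0.80 in replicates 1 to 4. The mean of 0.083 ± 1.12 (SD, n = 4) had a limma 95% interval from -0.85 to 1.02 and an adjusted p of 0.961. Both arrays of a replicate gave the same sign each time. With FSH in Cy5 the ratios were -0.92, 0.60, 1.28 and -0.95, and on the opposite slide -0.94, 0.80, 1.43 and -0.64. The 2 arrays of a replicate were thus at most 0.31 apart, while the replicates spanned 2.28. Of all probes kept, 0.50% had a larger SD between replicates.

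The pool signals show where TNFAIP6 differed. Its normalized log2 signal was 7.34, 9.24, 7.34 and 7.43 in FSH pools 1 to 4, against 8.05, 8.56, 6.40 and 8.0 in control pools 1 to 4. FSH pool 2 stood above all other pools and control pool 3 below them, and the groups overlapped. In control pool 3 the spot lay below the limit on both arrays, at 0.82 and 0.63 times the limit, so the ratio of replicate 3 rests on a control signal at background. The limits of that channel were also the highest of their dye, 192.1 in Cy3 and 82.2 in Cy5, against 46.8 to 145.9 and 20.8 to 44.0 on the other arrays. Without replicate 3 the mean ratio was -0.34, and without replicate 2 it was -0.12.

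PTX3, which encodes the pentraxin that cross-links heavy chains, split the replicates in pairs. Log2 ratios were -0.64 and -0.51 in replicates 1 and 2 and 0.32 and 0.30 in replicates 3 and 4. The mean was -0.13 ± 0.51 (SD, n = 4), with a limma 95% interval from -0.59 to 0.32 and an adjusted p of 0.844. The normalized log2 signal was 6.99, 7.47, 7.37 and 7.81 in FSH pools 1 to 4, against 7.30, 7.84, 6.92 and 7.54 in control pools 1 to 4. The groups overlapped over nearly their whole range, and control pool 3 was the lowest of all 8 pools. With the scanner values under normexp and loess, the mean ratio was 0.0085 ± 0.41, so its sign depends on the processing. In replicates 3 and 4 the orientations also differed, at 0.66 and 0.57 with FSH in Cy5 but -0.024 and 0.032 with FSH in Cy3.

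ITIH1 and ITIH2 encode 2 of the heavy chains that TNFAIP6 transfers, and in the body the liver makes them for the plasma. Both probes stayed near the limit. ITIH1 had log2 ratios of 0.13, 0.11, 0.077 and -0.16 in replicates 1 to 4, a mean of 0.040 ± 0.13 (SD, n = 4) and a limma adjusted p of 0.907. ITIH2 had ratios of -0.053, -0.019, 0.17 and 0.0089, a mean of 0.027 ± 0.099 (SD, n = 4) and a limma adjusted p of 0.936. The small spreads arise after averaging: the 2 arrays of a replicate differed by up to 1.00 for ITIH1 and 0.99 for ITIH2, both in replicate 4 and in opposite directions. The normalized log2 signals of the FSH pools lay from 6.49 to 6.67 for ITIH1, against 6.49 to 6.65 in control pools. For ITIH2 they lay from 6.53 to 6.65 in FSH pools and from 6.50 to 6.67 in control pools. For both genes the ranges of the groups nearly coincided.

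VCAN encodes versican, a large proteoglycan that binds hyaluronan. Its log2 ratios were 0.081, 0.43, -0.081 and -0.62 in replicates 1 to 4. The mean was -0.048 ± 0.44 (SD, n = 4), with a limma 95% interval from -0.45 to 0.35 and an adjusted p of 0.946. The 2 orientations were close, at most 0.17 apart in a replicate, with means of -0.055 (FSH in Cy5) and -0.041 (FSH in Cy3). The normalized log2 signal was 9.68, 10.24, 8.85 and 8.79 in FSH pools 1 to 4, against 9.73, 9.82, 8.98 and 9.55 in control pools 1 to 4. FSH pools 3 and 4 and control pool 3 were low, and the other 5 pools were higher.

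The summed signal of theca, stroma and endothelium markers was low in the same pools as VCAN, mostly through its 2 brightest genes. The summed normalized signal of the 10 markers was 16930, 18090, 9563 and 7863 in FSH pools 1 to 4, against 19250, 17830, 9841 and 18990 in control pools 1 to 4. The smooth muscle actin gene ACTA2 and the adhesion gene MCAM carried most of this sum. The next brightest, the smooth muscle myosin gene MYH11, had a normalized log2 signal of 8.28, 8.26, 8.10 and 8.26 in FSH pools 1 to 4, against 8.24, 8.14, 7.53 and 8.02 in control pools 1 to 4, and was not low in FSH pool 4. CYP17A1, VWF, CDH5 and PECAM1 did not follow the pattern either. The dimmer COL1A1 did, with 7.03 and 7.10 in FSH pools 3 and 4 and 7.12 in control pool 3, against 7.14 to 7.48 elsewhere. INSL3 did so narrowly, at 6.86 in FSH pools 3 and 4 and 6.79 in control pool 3, against 6.91 to 6.95 elsewhere. COL3A1 was lowest in FSH pools 3 and 4, at 6.60 and 6.59, with control pool 3 at 6.65 and FSH pool 1 at 6.63. Of these 10 markers 9 were kept, 3 with a higher and 6 with a lower mean with FSH. The endothelial gene PECAM1 exceeded the limit on 2 arrays with FSH and 0 in controls. Their part in the VCAN result was not tested.

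HAPLN3, of the link protein family that fastens proteoglycans to hyaluronan, had the most uniform direction. Its log2 ratios were 0.011, 0.36, 0.80 and 0.41 in replicates 1 to 4. The mean of 0.39 ± 0.32 (SD, n = 4), a 1.31-fold ratio, had a limma 95% interval from 0.077 to 0.71, an unadjusted p of 0.0222 and an adjusted p of 0.405. The normalized log2 signal was 11.34, 11.47, 10.88 and 11.48 in FSH pools 1 to 4, against 11.45, 11.13, 10.14 and 11.08 in control pools 1 to 4. FSH pools were higher in replicates 2, 3 and 4, whereas control pool 1 was slightly above FSH pool 1 on this scale, and the groups overlapped. The lowest pool was control pool 3, and without replicate 3 the mean ratio was 0.26 (limma adjusted p = 0.443). Where Cy5 marked FSH the mean was 0.55, and where Cy3 did it was 0.23, with replicate 1 at -0.067. The adjusted p was 0.144 with the 8 arrays taken singly and the replicate as a block. The limma unadjusted p was above 0.05 with normexp and loess (0.0796), where Cy3 marked FSH (0.133), and without replicate 2 (0.0577), 3 (0.0628) or 4 (0.0604), and without both replicates 3 and 4 (0.210).

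PRG4 encodes lubricin, a mucin-like glycoprotein of joint fluid that is also bound to hyaluronan. The tested probe had log2 ratios of -0.014, -0.060, 0.17 and -0.12 in replicates 1 to 4, with a mean of -0.0063 ± 0.13 (SD, n = 4) and a limma adjusted p of 0.986. Its normalized log2 signal lay from 6.45 to 6.51 in FSH pools and from 6.52 to 6.59 in control pools, so these ranges did not overlap. Among all probes kept, 1.72% were lower with FSH in every FSH pool than in any control pool, and 1.67% were higher. This probe lay within 0.79 to 1.14 times the limit with FSH and 0.72 to 1.30 times in controls, and the pool signals come from the scanner values, not from the authors' ratios. From scanner values, its mean ratio was -0.074 with normexp and loess (limma unadjusted p = 0.0138, adjusted p = 0.509). With median centring the mean ratio was -0.10 (limma unadjusted p = 0.0460, adjusted p = 0.564). The dim probe had a mean ratio of -0.065 ± 0.037 (SD, n = 4), below 0 in all 4 replicates, with signals under the limit throughout.

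CD44, the main hyaluronan receptor of the cell surface, had log2 ratios of -0.11, -0.23, 0.079 and 0.057 in replicates 1 to 4. The mean was -0.050 ± 0.14 (SD, n = 4), with a limma adjusted p of 0.879. Its normalized log2 signal lay from 6.74 to 6.85 in FSH pools, against 6.72 to 6.83 in control pools, and the ranges overlapped.

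SDC4 encodes syndecan-4, a heparan sulfate proteoglycan of the cell membrane, and had the lowest mean of the set. Its log2 ratios were -1.53, -0.63, 0.55 and -0.43 in replicates 1 to 4. The mean was -0.51 ± 0.86 (SD, n = 4), with a limma 95% interval from -1.23 to 0.21 and an adjusted p of 0.589. Replicate 3 alone was above 0, and both arrays gave the same sign in every replicate. The normalized log2 signal was 9.06, 9.25, 9.64 and 9.42 in FSH pools 1 to 4, against 10.46, 9.72, 9.31 and 9.90 in control pools 1 to 4. Control pool 1 was the highest of all 8 pools, and the groups overlapped through control pool 3. Without replicate 3 the mean was -0.86 (limma adjusted p = 0.246), and without replicate 1 it was -0.17.

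**Figure D3:**
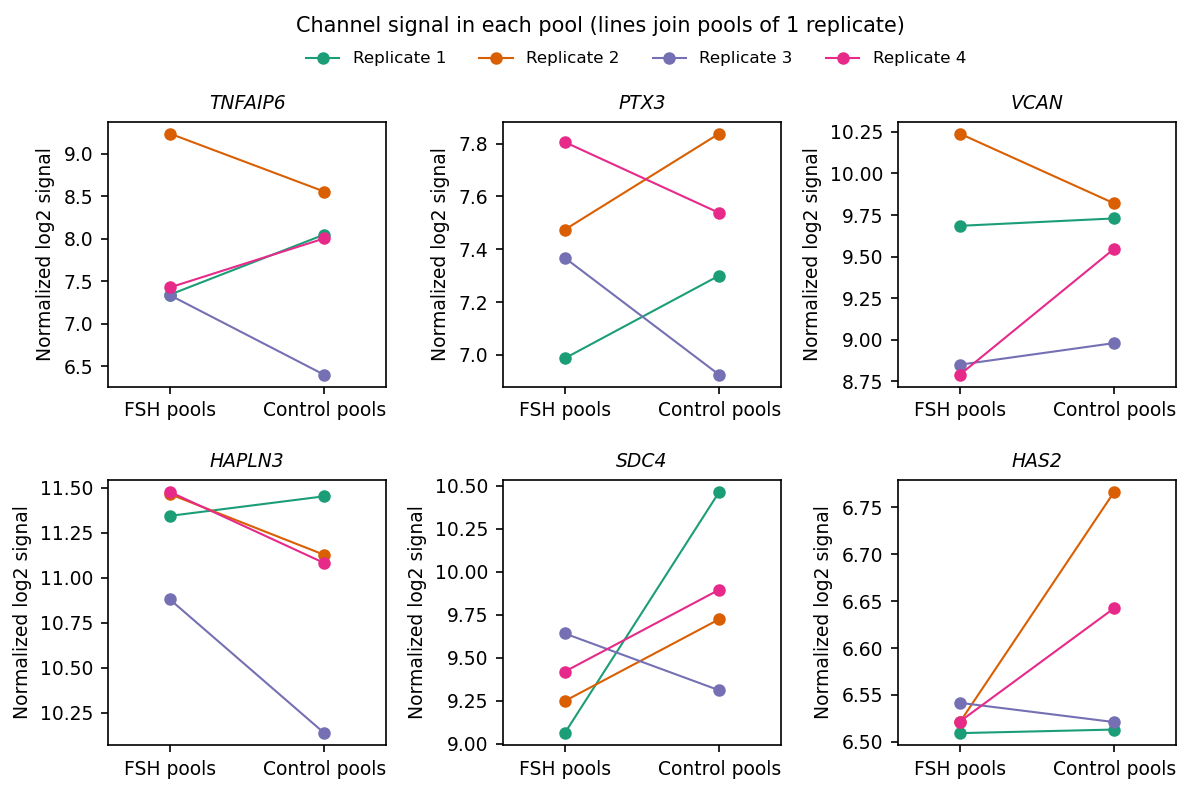
Normalized log2 signal (y axes, each with its own range) in the 4 FSH pools (left) and the 4 control pools (right) for 6 genes, with lines joining the pools of 1 replicate. Lines cross in every panel, and HAS2 has nearly equal FSH pools at 6.51 to 6.54.

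In the signs of its ratios, replicate 3 differed from the others. In it 9 of the 10 kept probes had a ratio above 0, with a median of 0.17, against 4 of 10 in each other replicate with medians of -0.033, -0.039 and -0.14 for replicates 1, 2 and 4. Over all probes kept, 51.0% were above 0 in replicate 3. The control spots of HAS2, TNFAIP6, ITIH1, ITIH2 and PRG4 lay below the limit on both arrays of replicate 3. For CD44 the control spots lay at 1.09 and 0.73 times the limit. The ratios of these genes in replicate 3 thus rest on control signals at or near background. Control pool 3 had the lowest signal of all pools for TNFAIP6, PTX3 and HAPLN3. The control channel of replicate 3 also had the fewest probes above the limit, at 46.3% (FSH in Cy5) and 33.9% (FSH in Cy3). Control channels of the other arrays had 68.9% to 84.0%. The median spot signal of the replicate 3 control channel was the highest of its dye, at 184.3 in Cy3 and 59.0 in Cy5. The limit there was also the highest of its dye, at 192.1 in Cy3 and 82.2 in Cy5. Several oocyte markers were high in control pool 3 and, to a lesser degree, in control pool 4. Over 14 oocyte markers with a probe, the summed normalized signal was 1444, 1475, 1440 and 1420 in FSH pools 1 to 4, against 1426, 1482, 2842 and 1812 in control pools 1 to 4. All 14 were kept, 4 with a higher and 10 with a lower mean with FSH. The oocyte gene BTG4 had a normalized log2 signal of 9.35 in control pool 3 and 8.02 in control pool 4, against 6.67 in control pool 1. In contrast, ZP3 stood at 6.68 in control pool 3 and 6.66 in control pool 1, and OOEP at 6.74 and 6.65 in the same pools. The summed signal of 10 immune markers was 1320, 1101, 1581 and 1870 in FSH pools 1 to 4, against 1236, 1138, 2185 and 1721 in control pools 1 to 4. PTPRC, the leukocyte phosphatase gene, carried nearly all variation in this sum, with a normalized log2 signal of 9.09, 8.28, 9.64 and 10.00 in FSH pools 1 to 4, against 8.86, 8.47, 10.46 and 9.88 in control pools 1 to 4. The lysozyme gene LYZ was lowest in control pool 3, at 6.44. Of the immune markers 6 were kept, 3 with a higher and 3 with a lower mean, and CSF1R and ITGAM exceeded the limit on 0 arrays. The part of these markers in the results of replicates 3 and 4, and of the high control limits in those of replicate 3, was not tested.

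Of the 10 cumulus and granulosa markers, 8 exceeded the limit on all arrays in both channels, and FOXL2 was too dim to be kept. Of the 9 kept, 2 had a higher and 7 a lower mean with FSH. The summed normalized signal of the 10 lay from 68940 to 85330 in FSH pools and from 84720 to 93500 in control pools. Red blood cell markers summed to 527.8 to 581.3 in FSH pools and to 525.8 to 578.2 in control pools. The share of an array's probes above the limit ran from 42.5% to 86.4% in the FSH channel and from 33.9% to 84.0% in the control channel. The median spot signal of an array ranged from 55.8 to 184.3 for Cy3 and from 26.6 to 59.0 for Cy5. Precision is limited by the 4 replicates, since both arrays of a replicate carry the same RNA.

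The spread between replicates was set against the gap between dye orientations. For 6 of the 10 kept probes, HAS2, TNFAIP6, PTX3, VCAN, HAPLN3 and SDC4, the range over replicates was larger than the largest gap between the 2 arrays of a replicate, a share near the 48.3% of all probes kept. Both arrays agreed in sign in all 4 replicates for 2 probes, TNFAIP6 and SDC4, as for 19.3% of all probes. The orientations themselves were compared by limma on their differences, and 0 of the 10 probes passed after adjustment, against 9.42% of all probes. At an unadjusted p under 0.05 there were 6, HAS2, PTX3, ITIH1, ITIH2, HAPLN3 and PRG4, against 26.9% of all probes. PRG4 was above 0 on all 4 arrays with FSH in Cy5 and below 0 on all 4 with FSH in Cy3, as 4.79% of all probes were with either sign.

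**Figure D4:**
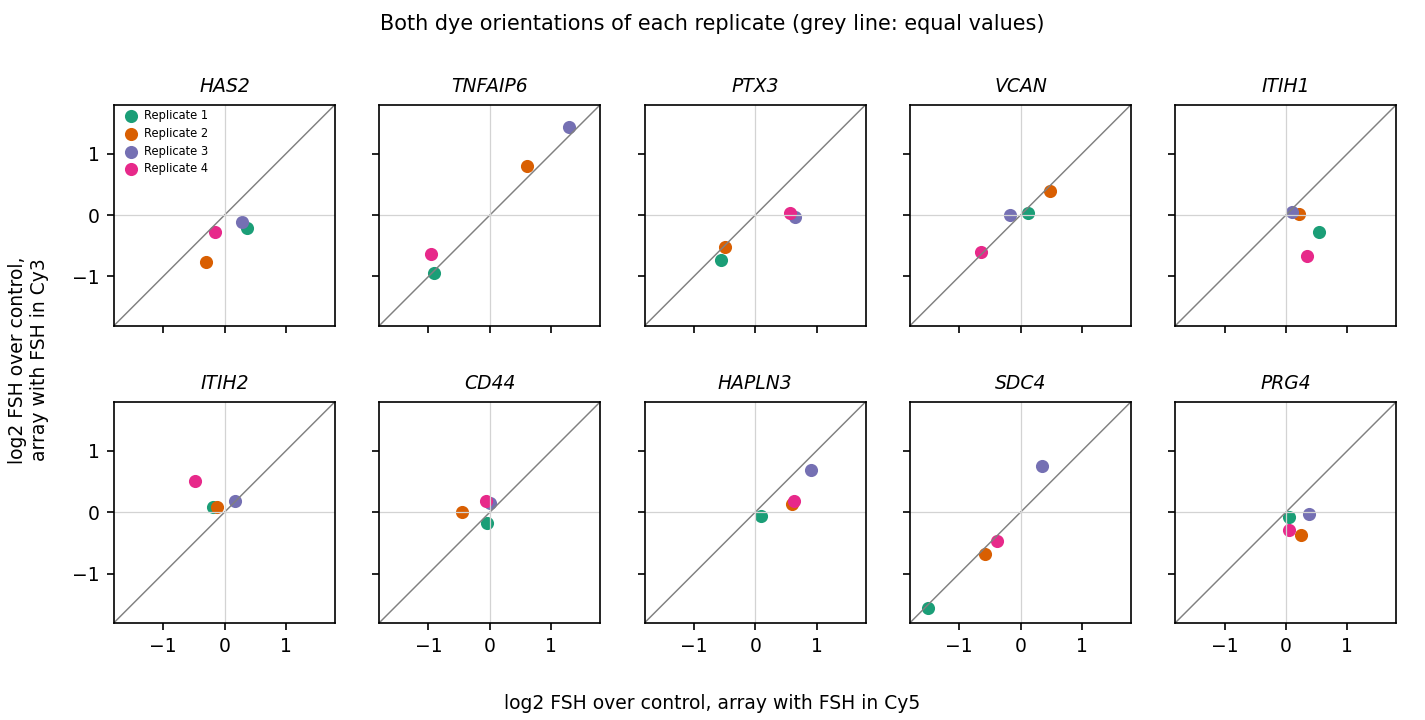
Log2 ratio of FSH over control on the array with FSH in Cy5 (x axis) against that with FSH in Cy3 (y axis), for each gene, with 4 points for the 4 replicates and a grey line of equal values. TNFAIP6, VCAN and SDC4 lie along the line, while PRG4 lies right of 0 and below 0.

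Genes whose pool signals lay nearest to those of 4 members were found among 12337 other genes, each centred on its own mean over the 8 pools. For TNFAIP6 the nearest was LOXL4, a lysyl oxidase that cross-links collagen and elastin, with a mean absolute difference of 0.13 on the log2 scale (median over genes 0.67). LOXL4 had a signal of 7.48, 9.25, 7.28 and 7.54 in FSH pools 1 to 4, against 8.40, 8.91, 6.36 and 8.25 in control pools 1 to 4. FSH pool 2 was high and control pool 3 low, as for TNFAIP6. The next was PLAT, which encodes tissue plasminogen activator, at 0.28. For VCAN the nearest were TMOD1, which caps actin filaments, at 0.045 and APMAP at 0.067 (median 0.44). For PTX3 they were CHMP4C and the mitochondrial nuclease gene ENDOG, each at 0.16, against a median of 0.28, a weak likeness. For HAS2, whose pools hardly differ at signals near the limit, they were YWHAB at 0.031 and ACTN2 at 0.041 (median 0.13). ACTN2 itself exceeded the limit on 2 arrays with FSH and 5 in controls. A likeness of such flat signals says little. The 2 pools of a replicate share their arrays.

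Other genes that make, bind or cut hyaluronan and matrix proteoglycans were read from a list of 43 symbols. Of these 37 had a probe, and 26 were bright enough to be tested, 13 with a higher and 13 with a lower mean with FSH. The list median was -0.00011 on the log2 scale, against 0.0026 over all 12338 genes tested. By limma, 0 genes rose and 0 fell after adjustment, where 0% of all genes did in either direction. At an unadjusted p under 0.05, 5 of the 26 were higher and 4 lower, shares above the 5.92% and 5.5% of all genes. The list was chosen with earlier results of these data known, so these shares are no test of the list. In all 4 replicates 4 were above 0 and 4 below 0, against 11.5% and 9.05% of all genes. Among those not tested were HAPLN1, the classical link protein gene, and the hyaluronidase genes HYAL1 and HYAL2, all too dim.

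The 4 genes of that list with the lowest unadjusted p were FMOD, DCN, STAB1 and GPC4. FMOD, which encodes the small collagen-binding proteoglycan fibromodulin, had log2 ratios of -0.21, -0.82, -0.71 and -1.19 in replicates 1 to 4. Its mean was -0.73 ± 0.40 (SD, n = 4) with a limma adjusted p of 0.297, and all 8 arrays exceeded the limit in both channels. Its mean was -0.83 where Cy5 marked FSH and -0.64 where Cy3 did. In the fit of single arrays with the replicate block, it was the 1 gene of the list that passed. DCN, which encodes the related proteoglycan decorin, stood at 0.32 ± 0.16 (SD, n = 4, limma adjusted p = 0.334). Its probe exceeded the limit on 5 arrays with FSH and 2 in controls, and the mean ratio was 0.65 where Cy5 marked FSH and -0.0081 where Cy3 did. STAB1, a scavenger receptor gene of the family that holds hyaluronan receptors, stood at -0.41 ± 0.32 (limma adjusted p = 0.365). GPC4, a glypican gene, stood at 0.45 ± 0.36 (limma adjusted p = 0.367), above 0 in all 4 replicates. ADAMTS1, a protease gene that cuts versican, had the lowest mean of the list, with log2 ratios of 0.41, -1.90, -1.23 and -2.53 in replicates 1 to 4 and a mean of -1.31 ± 1.26 (SD, n = 4, limma adjusted p = 0.374).

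A second list held 20 receptors, kinases, factors and local signals that act before the matrix genes. Of these 18 had a probe and 17 were tested, 9 with a higher and 8 with a lower mean, and a median of 0.014, against 0.0026 over all genes tested. By limma, 0 rose and 0 fell after adjustment, where 0% of all genes did in either direction. At an unadjusted p under 0.05 there were 0 higher and 2 lower, against 5.92% and 5.5% of all genes. GDF9, the oocyte growth factor gene, had the lowest p, at -0.43 ± 0.14 (SD, n = 4, limma adjusted p = 0.297), and its probe exceeded the limit on 2 arrays with FSH and 6 in controls. Its mean was -0.16 where Cy5 marked FSH and -0.71 where Cy3 did, and -0.23 from the scanner values. It is also 1 of the 14 oocyte markers, of which 10 had a lower mean with FSH, and their part in this value was not tested. SMAD2, a mediator of that factor's signal, stood at -0.26 ± 0.18 (limma adjusted p = 0.416), while its other tested probe stood at 0.20. BTC, an EGF-like growth factor gene, stood at 0.25 ± 0.22 (limma adjusted p = 0.457), and its other 2 tested probes at 0.23 and 0.37. PTGS2, the prostaglandin synthesis gene, stood at 0.21 ± 0.17 (limma adjusted p = 0.478), with log2 ratios of -0.030, 0.34, 0.34 and 0.21 in replicates 1 to 4.

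**Figure D5:**
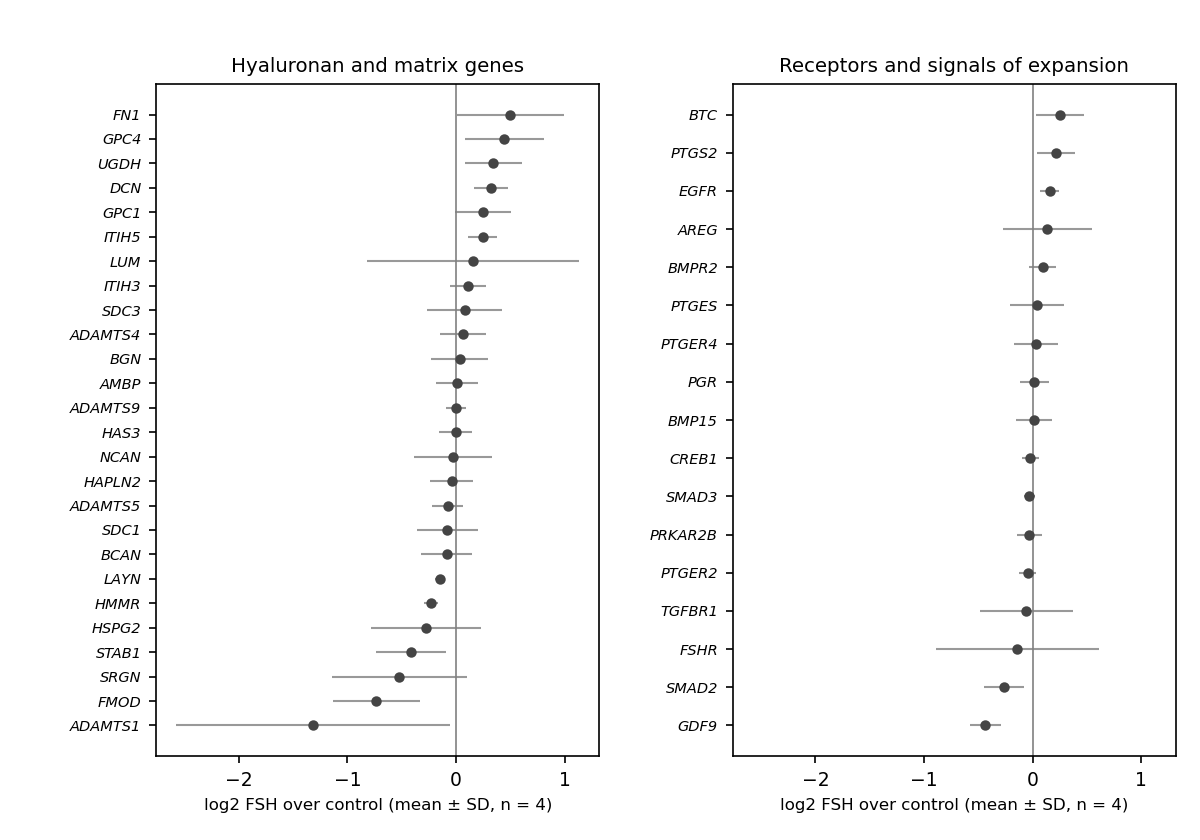
Mean log2 ratio of FSH over control (x axes) with SD over 4 replicates for the 26 tested genes of hyaluronan and matrix proteoglycans (left) and the 17 tested receptors and signals of expansion (right). FMOD lies at -0.73 on the left, ADAMTS1 at -1.31, and the means on the right stay between -0.43 and 0.25.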

How the data were processed

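Two-colour arrays measured FSH and control cumulus RNA. Scanner files hold spot intensity on a linear scale, per the file headers. The deposited series matrix holds the authors' normalized log2 ratios of FSH over control per array; it equals their deposited table of Cy5 over Cy3 after turning (largest difference 5e-06). Direction and scale were checked against scanner ratios (r across probes 0.454 to 0.768), and column medians were 0.0082, 0.0092, -0.0038 and 0.0011 for replicates 1 to 4 with FSH in Cy5, and 0.0089, 0.015, 0.011 and 0.018 with FSH in Cy3. The authors' background correction and normalization are not given in the sources used here.

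Ratios of the 2 arrays of a replicate were averaged and tested with limma 3.58.1 in R 4.3.3 (intercept, eBayes, Benjamini-Hochberg at 0.05), at probe level and, for lists, with the brightest kept probe of each gene. Kept probes exceeded the limit (geometric mean of both arrays) in at least 3 of 4 replicates in either channel. Of 43794 probes, 21790 carried 1 symbol, 0 several and 22004 none. Pool signals are scanner values after normexp (offset 50), loess and Aquantile normalization, so they need not equal the ratios. The replicate block used statmod 1.5.0. Same-numbered arrays of the 2 slides, which carry the same RNA, deviated together (r = 0.47, 0.61, 0.71 and 0.59 across probes for replicates 1 to 4), so the numbers pair them. The fit was checked on simulated data.

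The rule for named genes takes all 10 members, up to 4 genes of each list with the lowest unadjusted p, and the 2 nearest genes to HAS2, TNFAIP6, PTX3 and VCAN. ACTA2, MCAM, MYH11, CYP17A1, VWF, CDH5, PECAM1, COL1A1, INSL3, COL3A1, PTPRC, LYZ, BTG4, ZP3, OOEP, ADAMTS1, CSF1R, ITGAM, FOXL2, HAPLN1, HYAL1 and HYAL2 were named after seeing their values. Members and lists were chosen with earlier results of these data known. Alternatives were scanner processing, single slides, filters, the block and leaving out replicates.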

Additional observations from a re-analysis of the deposited data

Results flagged for a closer look

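The TNFAIP6 signal of FSH pool 2, at 9.24 on the normalized log2 scale, stood far from the other FSH pools, which lay from 7.34 to 7.43. Its gap to the next pool was 0.953 of the whole range, above Dixon's 95% critical value for 4 samples. This was 1 of 33 groups of 4 tested, and chance flags about 5% of groups. The control pool of the same replicate, at 8.56, was the highest control pool.

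The PRG4 ratio depended on the slide. Its mean was 0.37 higher on the log2 scale with FSH in Cy5 than with FSH in Cy3, with all 4 arrays above 0 on the first slide and all 4 below 0 on the second. By limma on the differences, the unadjusted p was 0.0101 and the adjusted p 0.0756, so it did not pass. Slide and dye cannot be told apart here.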

How the results depend on the processing

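No member passed under any of the 14 alternatives to the fit (lowest adjusted p 0.135, for HAPLN3 with the replicate block and a dye term), and the signs of HAPLN3 (0.19 to 0.65) and SDC4 (-1.08 to -0.17) held throughout. The count of probes called, 0 in the reported fit, was 46 on the slide with FSH in Cy5, 2 on the slide with FSH in Cy3, 77 without replicates 3 and 4, and 0 to 40 when single replicates were left out, with 40 without replicate 3. With the 8 arrays as a replicate block it was 595, and 427 with a dye term added, where FMOD was the 1 gene of the matrix list called in each. These fits count 2 arrays of the same RNA as separate values. The block changed no call of a member or of the inducers list.

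Signs near 0 turned. With normexp and loess PTX3 stood at 0.0085 and CD44 at 0.020, and with median centring PTX3 stood at 0.14, VCAN at 0.12, ITIH1 at -0.0079 and CD44 at 0.039. With FSH in Cy5 alone HAS2 stood at 0.046, PTX3 at 0.045, ITIH2 at -0.16 and PRG4 at 0.18 (0.089 for its dim probe), and with FSH in Cy3 alone ITIH1 stood at -0.22 and CD44 at 0.040. Without replicates 3 and 4 TNFAIP6 stood at -0.11, VCAN at 0.26 and ITIH2 at -0.036. Leaving out single replicates gave -0.34 to 0.42 for TNFAIP6, -0.28 to 0.037 for PTX3, -0.21 to 0.14 for VCAN, -0.021 to 0.054 for ITIH2, -0.093 to 0.0088 for CD44 and -0.065 to 0.033 for PRG4. The cause was not tested. The stricter filter left 4 members to test and the limit at 3 SD left 9. Signals near the limit leave the ratios of HAS2, ITIH1, ITIH2, CD44 and PRG4 uncertain in size.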
